A study of Mus musculus with 10 samples.

Results

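Single-cell RNA sequencing (scRNA-seq) of sorted CD45+ leukocytes of the brain asked whether Nlrp3 inflammasome signalling shapes microglial activation in health and under amyloid pathology. The natural killer (NK) cells of the brain were taken from these data. They were the 548 cells that the annotation of the authors calls NK, and not NKT, in the 10 libraries with a sample label, and none of them is in the separate annotation of the microglia. These 548 cells were part of 4925 cells outside the microglia and of 45472 CD45+ cells in all. They are described beside 3 other annotated lymphocyte types, 1598 T cells, 204 NKT cells and 157 group 2 innate lymphoid cells (ILC2).

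Each library came from whole brains of 3 mice, 2 males and 1 female, so a library is a pool and counts as 1 sample. WT mice and Nlrp3KO mice (full-body constitutive deletion of *Nlrp3*) were sampled at 3, 6 and 9 months of age. *APP/PS1* mice and Nlrp3KO *APP/PS1* mice were sampled at 3 and 9 months. The *APP/PS1* transgenes are expressed in neurons of the central nervous system, where mutant amyloid precursor protein and mutant presenilin-1 lead to amyloid deposits, and NK cells themselves were not targeted by them. In Nlrp3KO mice every cell type carries the deletion, so an effect of the NK cells' own *Nlrp3* and an effect of other cells cannot be told apart. All 4 genotypes were on a C57BL/6 background, and all brains were dissociated with actinomycin D, which blocks transcription during handling. With 1 library per genotype and age, and with age and the batch of the annotation running together, age and batch cannot be told apart.

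NK cells are innate lymphocytes that kill stressed or infected cells with perforin and granzymes and call in other leukocytes with chemokines and interferon-γ. They carry no rearranged antigen receptor, and their response is set by activating receptors such as NKp46 (*Ncr1*) and NKG2D (*Klrk1*) against inhibitory receptors for MHC class I, in mice chiefly the Ly49 family (*Klra* genes) and CD94/NKG2A. Close relatives, the ILC1, share most of these receptors but stay in tissues, and few cells of either kind are found in a healthy brain.

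In these libraries *Nlrp3* (chr11:59541568-59566956, + strand, GRCm38) was at 32.0 to 48.8 CPM (UMI counts of a gene scaled to the same total in every library) over all cells of the 5 Nlrp3 wild-type libraries and at 0 unique molecular identifiers (UMIs) in all 5 Nlrp3KO libraries. The NK cells held 10 to 149 cells and 61030 to 854157 UMIs per library, 3539074 UMIs in all. Precision was lowest in Nlrp3KO *APP/PS1* at 9 months (10 cells), WT at 9 months (16 cells) and Nlrp3KO at 9 months (18 cells). The median NK cell had 5989 UMIs from 2106 genes, beside 5810 UMIs in T cells, 5705 in NKT cells and 5622 in ILC2. No cell barcode of an NK cell occurred in NK cells of another library, and over all cells 246 barcodes did. A doublet score over 0.5 was recorded for 57 NK cells (10.4%), with 0 to 18.2% per library, and these cells had 1.38% of their UMIs in microglial marker genes against 0.0202% in the other 491.

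The label was checked by its 4 markers against T cells, NKT cells, ILC2 and microglia. No cells outside the microglia were annotated as ILC1, which share most NK receptors, so this check does not separate NK cells from ILC1. *Ncr1* (NKp46; chr7:4337724-4345164, + strand), *Klrb1c* (NK1.1; chr6:128778485-128789215, − strand), *Nkg7* (a cytotoxic granule membrane protein; chr7:43437073-43438249, + strand) and *Gzma* (granzyme A; chr13:113093825-113100981, − strand) were all detected in 170 of 548 NK cells (31.0%), and 3 of the 4 in a further 283 (51.6%). Only 2 NK cells had none, and only 4 of 1598 T cells had all 4. A UMI of *Ncr1* was present in 88.5% of NK cells (95% exact interval 85.5 to 91.1) and in 0.814% of T cells, 1.47% of NKT cells, 0 of 157 ILC2 and 0.05% of microglia. *Gzma* was the marker that divided them, with a UMI in 37.0% of NK cells (33.0 to 41.2) and in 4.63% of T cells. These intervals cover counting error only, and thinning each cell to 1000 UMIs gave 49.5% for *Ncr1* and 29.2% for *Gzma*.

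Transcripts of the CD3 chains, which define T cells, were also found in NK cells. A UMI of *Cd3d*, *Cd3e* or *Cd3g* was present in 197 NK cells (35.9%), against 99.3% of T cells, 99.0% of NKT cells and 16.6% of ILC2. Most of this was *Cd3g*, at 641 CPM in NK cells and 1499 CPM in T cells, while *Cd3e* was at 126 against 730 CPM and *Trac*, the constant gene of the T cell receptor α chain, at 66.7 against 455 CPM. Without the cells of a high doublet score, the 171 NK cells with a *Cd3* UMI still had *Ncr1* at 508 CPM and *Fcer1g* at 2862 CPM, beside 910 and 2893 CPM in the 320 without one, but *Trac* was at 166 against 8.5 CPM. They also had *Cd8a* at 61.6 against 0.53 CPM, in 12.3% of these cells, and *Trdc*, the constant gene of the δ chain, at 152 against 37.8 CPM. Other T cell receptor genes were found with and without a *Cd3* UMI. *Trbc1* was at 451 against 420 CPM (67.8 and 77.5% of cells), *Trbc2* at 732 against 392 CPM and *Tcrg-C4* at 130 against 132 CPM. The coreceptors *Cd8b1* (3.39 CPM) and *Cd4* (0.85 CPM) were close to 0 over all NK cells, and *Cd8a* was at 23.2 CPM. The genes called between genotypes are given below with and without these cells, and the other results with them.

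NK cells made up 2.14 to 16.5% of the cells outside the microglia. The share was 8.87% in WT, 13.99% in Nlrp3KO, 14.3% in *APP/PS1* and 16.5% in Nlrp3KO *APP/PS1* mice at 3 months. It was 11.9% in WT and 10.0% in Nlrp3KO mice at 6 months, and 6.78%, 8.04%, 11.4% and 2.14% in WT, Nlrp3KO, *APP/PS1* and Nlrp3KO *APP/PS1* mice at 9 months. The last of these was the lowest of the 10, 10 NK cells with a 95% exact interval of 1.03 to 3.89%, and the *APP/PS1* libraries otherwise lay above their non-diseased partners of the same age and Nlrp3 genotype. Over the 4 pairs the *APP/PS1* share was 1.66 percentage points higher (SD 5.19, means 11.1 and 9.42%, higher in 3 of 4 pairs), which did not pass a permutation test that flips the sign of each pair (exact, two-sided, p = 0.625, smallest possible 0.125). Over the 5 pairs of Nlrp3KO and Nlrp3 wild-type libraries the difference was −0.521 points (SD 5.50, means 10.1 and 10.7%, p = 0.875 by the same exact test, smallest possible 0.0625). Both differences were smaller than the spread between pairs. The former was 4.18 points without the Nlrp3KO pair of 9 months, and −3.69 points as a share of NK, T, NKT and ILC2 cells. Without the 9-month *APP/PS1* pair the latter was 1.67 points.

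Relative to T cells, NK cells fell into an order by age. The number of NK cells per T cell was 0.702 to 1.52 in the 4 libraries of 3 months, 0.286 and 0.332 in the 2 libraries of 6 months and 0.0360 to 0.262 in the 4 libraries of 9 months, and the 3 ages did not overlap. T cells were 7.26 to 20.4% of the cells outside the microglia at 3 months, 35.1 and 35.9% at 6 months and 25.8 to 59.4% at 9 months, while the NK share was 8.87 to 16.5%, 10.0 and 11.9%, and 2.14 to 11.4%. The T cell share of 3 months lay below that of both later ages, whereas the NK shares of 3 and 9 months overlapped. No test was made, because each age is 1 batch. The log2 ratio of *APP/PS1* less that of non-diseased libraries was −0.871 (SD 1.21, lower in 3 of 4 pairs, −0.309 without the Nlrp3KO pair of 9 months, p = 0.25 by exact permutation). That of Nlrp3KO less Nlrp3 wild-type libraries was −0.367 (SD 1.30, lower in 3 of 5 pairs, p = 0.625 by exact permutation), and it turned to 0.153 without the 9-month *APP/PS1* pair. Neither passed, and shares of cells say nothing of the number of NK cells per brain.

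**Figure D1:**
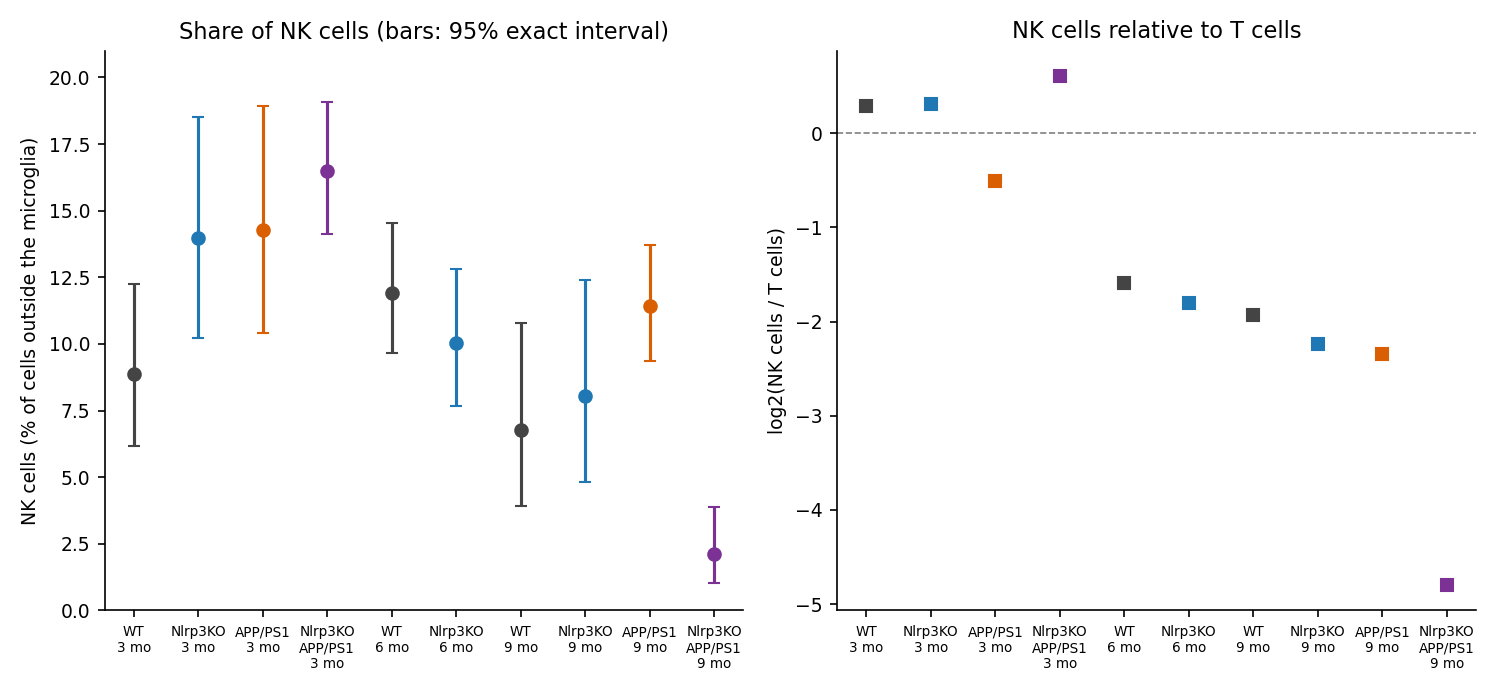
NK cells as percent of the cells outside the microglia (left; points are libraries, bars the 95% exact interval, which covers counting error) and log2 of NK cells per T cell (right) for the 10 libraries by age and genotype. The share ranges from 2.14 to 16.5%, and the ratio of the 3-month libraries (0.702 to 1.52 before the log) lies above that of the 6- and 9-month libraries.

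The levels below are CPM of the UMIs summed over the NK cells of a library or of all libraries, and since a UMI marks 1 molecule at its 3′ end, they are not divided by transcript length. Cells were clustered on these genes, so the comparison of NK cells with the other lymphocytes is a description and has no test. It includes the cells with a high doublet score, which were 10.4% of NK cells, 5.94% of T cells, 0% of NKT cells and 2.55% of ILC2. Those NK cells held 573300 of the 3539074 NK UMIs, and their part in this comparison was not tested. Of 8814 genes with at least 100 UMIs in the 4 cell types, 214 (2.43%) were over 2-fold higher in NK cells than in each of T, NKT and ILC2, 67 (0.76%) were over 2-fold lower than in each, and the median gene was 0.14, 0.20 and 0.15 higher on the log2 scale. Over T cells alone, 412 genes (4.67%) were past 2-fold higher and 343 (3.89%) past 2-fold lower. The 15 genes that stood furthest above all 3 types were *Klra8*, *Klrb1a*, *Klra4*, *Ncr1*, *Gzmc*, *Cma1*, *Itgax*, *Scimp*, *Aoah*, *Sh2d1b1*, *Gzma*, *Atp1b1*, *Cd244*, *Klrb1f* and *Fcer1g*. Their smallest log2 ratio ran from 6.83 (*Klra8*) to 4.09 (*Fcer1g*), with a prior count of 2.

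Of the receptor lists, the Ly49 family lay highest above T cells. Ly49 receptors are lectin-like proteins, most of them inhibitory, that read MHC class I on other cells, and each NK cell uses a few of the family. Their 11 genes in the count table lie within chr6:129831154-131247362, and 7 of the 8 that were measured were higher than in all 3 other types (median log2 over T cells 4.52, over NKT cells 2.48). *Klra8* (Ly49H, an activating member) was at 198 CPM in NK cells, 1.45 CPM in T cells and 0 in NKT cells and ILC2. By library it was 151, 215, 63.4 and 221 CPM at 3 months (WT, Nlrp3KO, *APP/PS1*, Nlrp3KO *APP/PS1*), 268 and 228 CPM at 6 months (WT, Nlrp3KO) and 0, 139, 208 and 115 CPM at 9 months. It was thus present in 9 libraries of all 4 genotypes, and the 16 cells of the WT library at 9 months held neither *Klra8* nor *Klra4*. *Klra4* (Ly49D, also activating) was at 212 against 2.12 CPM, *Klra9* at 628 against 19.3 CPM, *Klra7* at 275 against 16.5 CPM and *Klra1* at 172 against 16.7 CPM in NK and T cells. NKT cells came closest, with *Klra9* at 123 CPM and *Klra1* at 81.3 CPM.

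Cell by cell the Ly49 repertoire was sparse. No Ly49 UMI was found in 138 NK cells (25.2%), UMIs of 1 gene in 168 (30.7%), of 2 genes in 86 (15.7%), of 3 in 74 (13.5%) and of 4 or more in 82 (14.96%), with 6 as the highest. In T cells 94.6% had none, in NKT cells 75.5%, and in ILC2 all 157. At 1000 UMIs per cell the NK share with none was 41.4%, so the numbers of genes per cell are lower limits set by depth. The family's members are near copies, and of the 90-base windows in the last 500 bases of the transcript 12.4% of *Klra9*, 15.6% of *Klra10* and 6.57% of *Klra7* also occur in another gene, against 0% for *Klra1*, *Klra4* and *Klra8*. The division of reads among the former is uncertain.

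The other lectin-like receptors followed, with 9 of 12 measured genes higher than in all 3 types (median log2 over T cells 3.30, over NKT cells 2.58). *Klrk1* (NKG2D, which binds stress-induced ligands) was at 865 to 1281 CPM over the 10 libraries (median 1122), and at 163 CPM in T cells and 488 CPM in NKT cells. *Klrd1* (CD94) was at 1123 against 159 CPM in T cells, *Klre1* at 773 against 59.7 CPM, and *Klrc2* (NKG2C, activating) at 348 against 45.8 CPM. *Klrc1* (NKG2A, inhibitory) was at 212 CPM against 47.3 CPM in T cells but 143 CPM in NKT cells, within 2-fold, and since 21.9% of its 90-base windows near the 3′ end also occur in *Klrc2*, the division of reads between both is uncertain too (11.4% for *Klrb1c*). *Klrg1*, a mark of terminally mature NK cells, was at 52.3 CPM and lower than in ILC2 (78.5 CPM). Among the genes of the NK1.1 cluster, *Klrb1a* was at 142 CPM against 0.964 CPM in T cells and 0 in NKT cells and ILC2, and *Klrb1f* at 248 against 12.3 CPM in T cells.

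Of 14 measured genes for other activating receptors and adaptors, 8 were higher than in all 3 types. The list of inhibitory receptors and checkpoints had 0 of 8, beside 2.43% of all genes. It leaves out the mostly inhibitory Ly49 family and NKG2A, given above, so these lists do not compare activating with inhibitory receptors. *Ncr1* was at 782, 584, 559 and 666 CPM at 3 months (WT, Nlrp3KO, *APP/PS1*, Nlrp3KO *APP/PS1*), 817 and 778 CPM at 6 months and 650, 836, 652 and 492 CPM at 9 months. It varied less than 2-fold among the libraries and was near 0 in the other lymphocytes (7.999, 3.42 and 0 CPM in T, NKT and ILC2). The signalling adaptor *Fcer1g* ranged from 2502 to 3277 CPM in NK cells and was at 167 CPM in T cells, and *Tyrobp* (DAP12, the partner of activating Ly49 receptors) was at 2326 against 155 CPM. *Cd247*, the ζ chain shared with the T cell receptor, went the other way, at 48.3 against 128 CPM, and *Hcst* (DAP10) was at 643 against 815 CPM. *Cd244* (2B4) was at 281 against 13.8 CPM, *Cd160* at 194 against 73.1 CPM, and *Fcgr3* (the Fc receptor of antibody-dependent killing) at 139 against 54.2 CPM. Among the inhibitory receptors, *Pdcd1* (PD-1) was at 61.6 CPM in NK cells and 70.6 CPM in T cells, *Lag3* at 57.9 and 33.2 CPM, *Cd96* at 71.8 and 58.6 CPM and *Cd200r1* at 63.9 and 21.2 CPM, the last below the 101 CPM of ILC2.

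The killing machinery was uneven between its members. Of 18 measured granule genes 7 were higher than in all 3 types. *Prf1* (perforin) was at 465 CPM over all NK cells, 69.7 CPM in T cells and 47.9 CPM in NKT cells, and *Gzmb* at 1455, 116 and 178 CPM. *Gzma* by library was 3325, 3307, 2352 and 1714 CPM at 3 months (WT, Nlrp3KO, *APP/PS1*, Nlrp3KO *APP/PS1*), 3793 and 3264 CPM at 6 months and 1157, 2126, 7329 and 1966 CPM at 9 months. Its highest value, in *APP/PS1* mice, and its lowest, in WT mice, were both of 9 months, and the highest T cell library was at 573 CPM. *Gzmc* (granzyme C; chr14:56231441-56234656, − strand), less studied than the former, ran from 246 CPM (Nlrp3KO *APP/PS1*, 9 months) to 3103 CPM (*APP/PS1*, 9 months) with a median of 919 CPM, and was in 36.3% of NK cells and 0.63% of T cells. The neighbouring *Gzmd*, *Gzme*, *Gzmf* and *Gzmg* had 0 UMIs in 548 NK cells, which allows up to 0.848 CPM, and *Gzmk* was at 0.85 CPM against 128 CPM in T cells. *Serpinb9*, an inhibitor that shields the cell from its own granzyme B, was at 135 against 29.5 CPM, and *Ctsd* (cathepsin D) at 1590 against 715 CPM. The part of the cells with a high doublet score in the level of *Ctsd* was not tested. *Nkg7* separated NK cells from ILC2 (2.18 CPM) but hardly from T cells (2240 and 1508 CPM).

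**Figure D2:**
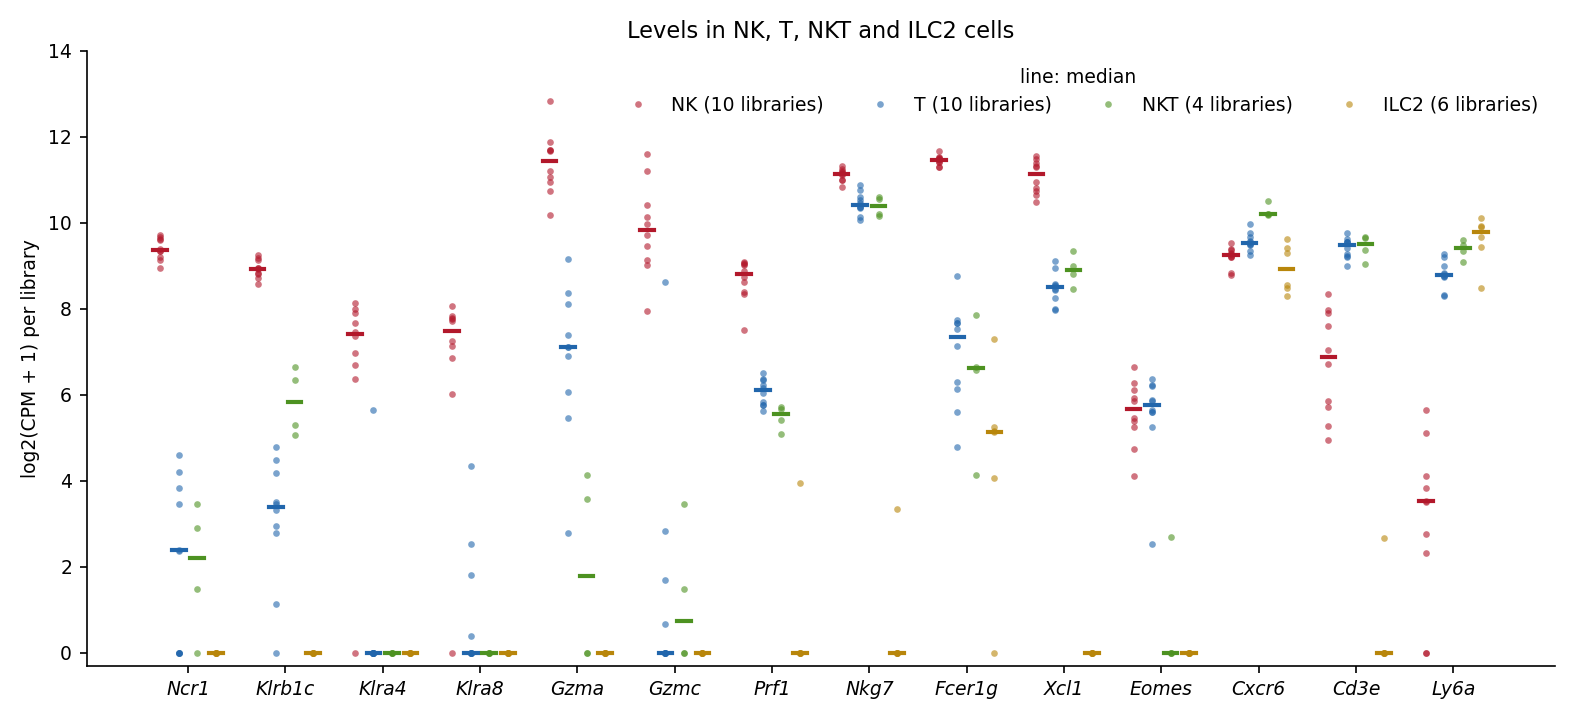
Levels of 14 named genes, as log2(CPM + 1), with 1 point per library with at least 10 cells of the type (10 libraries for NK and T cells, 4 for NKT cells, 6 for ILC2) and a line at the median. *Ncr1*, *Klra4*, *Klra8*, *Gzma*, *Gzmc* and *Fcer1g* are high in NK cells, *Nkg7* is shared with T and NKT cells, *Ly6a* is lower in NK cells than in the other 3 types, and *Cd3e* is lower than in T and NKT cells but not than in ILC2.

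Of 7 chemokine genes 5 were over 2-fold above all 3 types, beside 2.43% of all genes. Of 13 death ligand and cytokine genes 0 were, which is near the share of all genes. Against T cells alone, 4 of these 13 were past 2-fold higher and 2 past 2-fold lower, beside 4.67 and 3.89% of all genes. *Xcl1*, which attracts cross-presenting dendritic cells, was at 1433 to 2995 CPM over the libraries (median 2252), and at 377 CPM in T cells, 429 CPM in NKT cells and 0 in ILC2. *Ccl4* and *Ccl3*, which draw in other leukocytes, were at 791 against 85.8 CPM and at 174 against 12.3 CPM in NK and T cells. *Ccl5* was the fifth most abundant transcript of NK cells outside mitochondrial and ribosomal protein genes (8296 CPM, after *Malat1*, *Tmsb4x*, *Tpt1* and *Actb*), with 5610 CPM in T cells. *Ccl1* met the limit through a handful of cells, since 182 of its 349 UMIs came from 1 cell. *Ifng* (interferon-γ) was at 79.7 against 31.7 CPM in T cells and 42.8 CPM in NKT cells, *Fasl* at 125 CPM against 160 CPM in NKT cells, and *Ltb* (lymphotoxin β) at 707 CPM, the lowest of the 4 types.

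Of 24 receptors for chemokines and homing, 6 were higher than in all 3 types, and several of them are known from circulating NK cells. They included *Itgax* (CD11c, 128 against 3.95 CPM in T cells), *Itgam* (CD11b, 89.9 against 23.7 CPM), *Itga2* (CD49b, 34.2 against 7.23 CPM), *S1pr5* (the receptor by which NK cells leave marrow and nodes, 27.1 against 1.93 CPM) and *Cmklr1*. Of receptors linked to residency, *Cxcr6* was at 579 CPM, beside 790 CPM in T cells, 1170 CPM in NKT cells and 525 CPM in ILC2, and *Itga1* (CD49a) was at 302 CPM, beside 180 CPM in T cells, 329 CPM in NKT cells and 0 in ILC2. Among 22 cytokine receptors *Il2rb*, the β chain of the IL-2 and IL-15 receptors on which NK cells depend, passed (861 to 1294 CPM over the libraries, 225 CPM in T cells), and *Il7r* was lower than in all 3 types (50.0 CPM against 304 CPM in T cells and 790 CPM in ILC2). These were 1 of 22 genes each way, beside 2.43% of all genes higher and 0.76% lower.

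Of 29 transcription factors, *Irf8* (315 against 40.9 CPM in T cells), *Zeb2* (170 against 75.8 CPM, a driver of terminal NK maturation), *Nfil3* (30.0 against 6.07 CPM, needed to form NK cells) and *Zfpm1* were higher than in all 3 types. *Eomes*, which in mice separates conventional NK cells from ILC1, was at 65.8 CPM in NK cells and 62.3 CPM in T cells, and a UMI was in 19.9 and 23.9% of them. *Tbx21* (T-bet) was at 114 against 39.2 CPM. The ILC2 regulators *Gata3* (79.1 against 901 CPM) and *Rora* (29.1 against 228 CPM) were lower than in ILC2, and *Il1rl1*, *Areg*, *Il5* and *Il13* had 0 UMIs in NK cells, again allowing 0.848 CPM.

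The genes that stood furthest below all 3 types were *Ly6a* (Sca-1), *Ccr9*, *Ly6c1*, *Kcnn4* and *Ass1*. *Ly6a* was at 18.9 CPM in NK cells against 466, 636 and 845 CPM in T, NKT and ILC2, and the highest of 10 NK libraries was at 48.9 CPM. *Ccr9* and *Ly6c1* had 0 UMIs in NK cells, *Kcnn4* (a calcium-activated potassium channel) was at 5.09 CPM against 86.2 CPM or more, and *Ass1* (argininosuccinate synthase) at 1.41 CPM against 30.5 CPM or more. *Ly6a* is an interferon-stimulated gene, and of 34 measured genes of that list 18 were over 2-fold lower than in T cells (median log2 −1.04), with *Isg15* at 94.9 against 211 CPM. Of all genes 3.89% were past 2-fold below T cells. The list was not low against the other types. Beside NKT cells 6 genes were past 2-fold lower and 3 higher (median log2 −0.18), and beside ILC2 2 were lower and 15 higher (0.79). Proliferation genes were also lower than in T cells, 16 of 23 past 2-fold (median log2 −2.23), but not than in NKT cells or ILC2, over which 13 and 12 of them were past 2-fold higher (median log2 1.22 and 1.18). At least 3 of 6 core cell-cycle genes were detected in 4 of 548 NK cells (0.73%, 95% exact interval 0.199 to 1.86) against 54 of 1598 T cells (3.38%, 2.55 to 4.39), 0 of 204 NKT cells and 0 of 157 ILC2. None of 15 MHC class I genes differed by 2-fold from all 3 types, and of 19 immediate early genes *Nr4a2* and *Nr4a3* did. Of all genes 2.43% were higher and 0.76% lower by this limit.

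The target of the knockout was barely detectable in these cells. In the 5 Nlrp3 wild-type libraries *Nlrp3* gave 4 UMIs in 3 of 274 NK cells (1.09%, 95% exact interval 0.226 to 3.17), against 18.7% of 18289 microglia with a UMI. The median microglial cell had 4506 UMIs over all libraries. Of the 8 inflammasome genes measured, *Pycard* (the adaptor ASC) was higher than in all 3 types, at 331 CPM against 163 CPM in T cells, 115 CPM in NKT cells and 98.2 CPM in ILC2. Here too the part of the cells with a high doublet score was not tested. *Casp1* (caspase-1) was at 64.7 against 70.8 CPM in T cells, *Aim2* at 54.0 against 50.9 CPM, and *Il1b* at 0.3 CPM (1 UMI). None of 6 NF-κB genes was past 2-fold above all 3 types, beside 2.43% of all genes.

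Marker genes of other cells were also found. Over the libraries, the summed level of the 10 microglia markers in NK cells ran from 16.4 to 5008 CPM, of the 5 monocyte markers from 65.5 to 1068 CPM, of B cell markers from 0 to 15.6 CPM, of border macrophage markers from 0 to 39.8 CPM, of neutrophil markers from 0 to 51.7 CPM and of red cell markers from 0 to 15.2 CPM. Microglia markers overlapped between *APP/PS1* libraries (16.4 to 3835 CPM) and non-diseased libraries (142 to 5008 CPM), as they did between Nlrp3KO (16.4 to 4734 CPM) and Nlrp3 wild-type libraries (142 to 5008 CPM). By age they did not overlap, at 3067 to 5008 CPM in the 4 libraries of 3 months and 16.4 to 1560 CPM in the 6 later ones, and the share of cells with a high doublet score was 12.5 to 18.2% and 0 to 9.09%. The 4 microglia markers past 2-fold over T, NKT and ILC2 (*P2ry12*, *Sall1*, *Fcrls* and *Trem2*) belong to the list that took 1.38% of the UMIs of the cells with a high doublet score. Their part in the results was not tested.

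The NK cells were not uniform. *Gzma* and *Gzmc* were in 37.0 and 36.3% of them. The 10 genes of ILC1 and tissue residency (*Itga1*, *Cxcr6*, *Tnfsf10*, *Il7r*, *Tmem176a*, *Tmem176b*, *Cd69*, *Itgae*, *Zfp683* and *Inpp4b*) and 8 genes of late maturation (*Itgam*, *Klrg1*, *Zeb2*, *S1pr5*, *Prdm1*, *Cma1*, *Spn* and *Klf2*) were counted in each of the 491 cells without a high doublet score. More residency than late UMIs were found in 389 cells, more late than residency UMIs in 93 (18.9%), and 9 cells tied. The split was cut from a count per cell after the values were seen, so these are ranges of a score, not cell types, and their comparison has no test. Whether the residency cells, the larger range, are NK cells or ILC1 was not tested. Few cells lay at the cut, 22 of 491 (4.48%) within 1 log2 unit. The median residency cell had 14 residency UMIs and 1 late UMI, and the median late cell 0 and 16. The cut depends on the list, because with *Gzmb*, *Cx3cr1* and *Ly6c2* kept in the late list 202 cells were late and 162 lay near the cut.

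Late cells were found in every library. They were 14.8% in WT, 29.4% in Nlrp3KO, 17.1% in *APP/PS1* and 15.9% in Nlrp3KO *APP/PS1* mice at 3 months, 31.7% and 11.3% in WT and Nlrp3KO mice at 6 months, and 12.5%, 11.1%, 17.8% and 10.0% at 9 months, over 10 to 126 cells. The 4 *APP/PS1* libraries (10.0 to 17.8%) overlapped with the non-diseased libraries (11.1 to 31.7%). Residency cells had a median of 5985 UMIs and 27.1% ribosomal protein UMIs, late cells 4952 UMIs and 18.9%. A *Cd3* UMI was in 163 residency cells (41.9%) and 6 late cells (6.45%), and its part in the differences between both ranges was not tested.

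**Figure D3:**
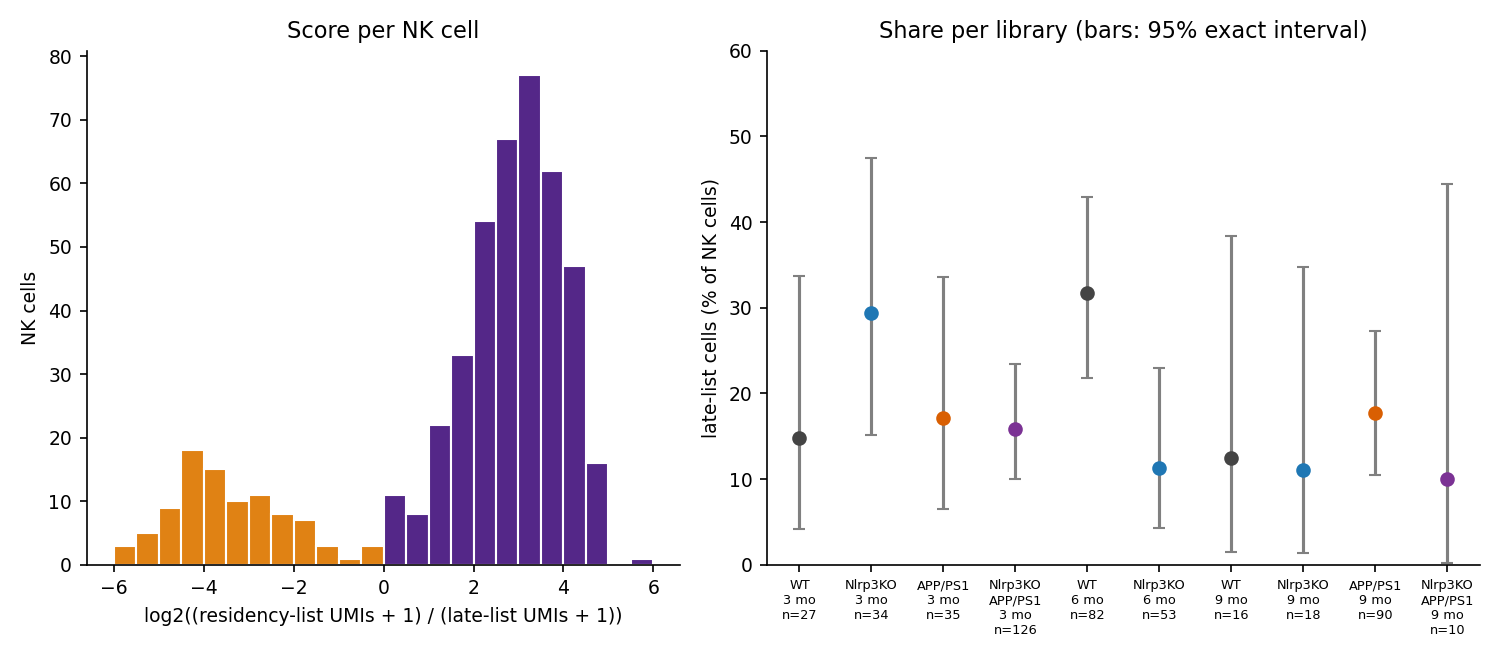
Left, number of NK cells by log2((residency UMIs + 1)/(late UMIs + 1)) for the 491 cells with a doublet score of at most 0.5, with the bars at or above 0 in purple. Right, percent of cells with more late than residency UMIs in each library (95% exact interval, number of cells given). Few of the cells lie between the 2 groups of bars, and the late share runs from 10.0 to 31.7% with wide, overlapping intervals.

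Genes outside both lists split with them. *Gzma* was at 1425 CPM in residency cells and 16054 CPM in late cells, with a UMI in 24.7 and 96.8% of cells, and was higher in the late cells of all 4 libraries with at least 10 cells in each range (13561 to 17378 CPM). Of the 3424 UMIs in residency cells 2660 came from *APP/PS1* mice at 9 months (5905 CPM), and without that library the residency level was 391 CPM with a UMI in 63 of 315 cells. *Gzmc* was its mirror image, with 4463 UMIs (1858 CPM, 45.2% of cells) in residency cells and 1 UMI in the 93 late cells, higher in residency cells in 4 of 4 libraries. Its residency UMIs were uneven too, 1750 from *APP/PS1* mice at 9 months and 926 from Nlrp3KO mice at 6 months. In WT mice at 3 months 154 of 187 were in 1 cell. *Prf1* followed *Gzma* (209 and 1966 CPM), while *Gzmb* was in both (1483 and 1962 CPM, higher in late cells of 3 of 4 libraries). Of 3916 genes compared, 208 (5.31%) were over 2-fold higher in residency cells and 109 (2.78%) over 2-fold higher in late cells.

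Several receptors and secreted factors also differed between the ranges. *Eomes* was at 30.8 CPM in residency cells and 232 CPM in late cells, *Irf8* at 117 and 1116 CPM, and *Itga2* at 5.83 and 179 CPM. The Ly49 genes *Klra4* (79.9 and 896 CPM), *Klra8* (132 and 512 CPM) and *Klra3* (64.9 and 310 CPM) were lower in residency cells. *Klra9* (670 and 754 CPM) and *Klra1* (169 and 228 CPM) differed little. Of the chemokines, *Ccl5* (5789 and 24039 CPM), *Ccl4* (418 and 2607 CPM) and *Ccl3* (57.5 and 705 CPM) were higher in late cells, and *Xcl1* (2457 and 618 CPM) in residency cells. *Ccl4* and *Ccl3* were each higher in late cells in 3 of 4 libraries and lower in 1. In late cells *Ccl4* was at 10395 CPM in Nlrp3KO *APP/PS1* mice at 3 months and at 869 to 1138 CPM in the other libraries with enough cells. *Ltb* (900 and 70.1 CPM), *Cd7* (1447 and 160 CPM) and *Cxcr3* (204 and 35.1 CPM) were on the residency side. The inhibitory receptors *Pdcd1* and *Cd200r1* were in 22.6 and 34.4% of residency cells and had 0 UMIs in the 93 late cells, which allows up to 5.84 CPM against 77.9 and 78.7 CPM.

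Other NK genes were found in both ranges. *Fcer1g* was at 2945 CPM in residency and 2632 CPM in late cells, *Klrk1* at 1179 and 1356 CPM, and *Ncr1*, *Klrb1c* and *Nkg7* were present in both and higher in late cells in 4 of 4 libraries (664 and 1221 CPM, 454 and 803 CPM, 2026 and 4323 CPM). *Il2rb* was higher in residency cells (1128 and 713 CPM). *Trac*, by contrast with *Cd3g* (815 and 68.2 CPM), was at 72.0 and 44.8 CPM and higher in late cells in 3 of 4 libraries.

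**Figure D4:**
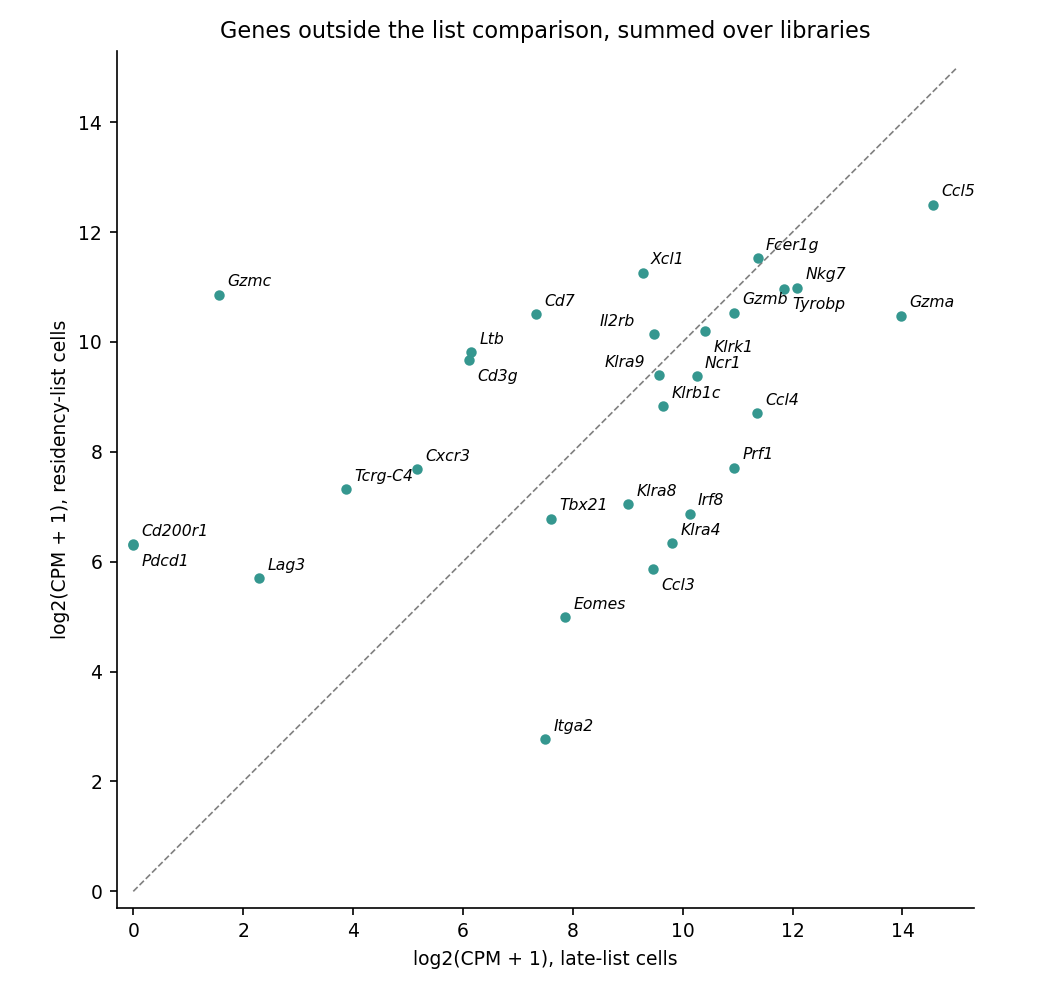
Level in residency cells (vertical axis) against late cells (horizontal axis), as log2(CPM + 1) of the UMIs summed over 389 and 93 cells, for named genes that are in neither list used for the split. *Gzma*, *Prf1*, *Ccl5*, *Irf8* and *Eomes* lie on the late side of the diagonal, *Gzmc*, *Xcl1*, *Cd7*, *Ltb* and *Pdcd1* on the residency side, and *Fcer1g*, *Klrk1* and *Gzmb* near it.

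The *APP/PS1* transgenes went with few differences within NK cells. Counts summed over the NK cells of each library were compared in 4 pairs of the same age and Nlrp3 genotype by edgeR's quasi-likelihood test with the pair as block. A gene was called at a Benjamini-Hochberg adjusted p below 0.05 and an absolute log2 fold change over 1, and 1 of 3392 genes tested (0.0295%) was called. That gene was *Pdcd1* (chr1:94038305-94052553, − strand), whose product PD-1 restrains activated lymphocytes. It was at 104 CPM in WT and 211 CPM in Nlrp3KO mice against 51.9 CPM in *APP/PS1* and 39.8 CPM in Nlrp3KO *APP/PS1* mice at 3 months, and at 102 and 65.0 CPM against 55.3 and 16.4 CPM at 9 months. All 4 *APP/PS1* libraries lay below all 4 non-diseased libraries of these ages (mean 40.8 ± 17.6 against 120 ± 62.8 CPM, SD, n = 4), but the non-diseased libraries of 6 months, which were outside the pairs, were as low (34.7 and 48.8 CPM). The log2 fold change was −1.67 (SE 0.292, edgeR adjusted p = 0.0422), from 218 UMIs in 103 cells over all libraries. Leaving out the Nlrp3KO pair of 3 months or that of 9 months left 0 calls, and *Pdcd1* was at −1.64 (edgeR adjusted p = 0.171) without the latter. The call did not hold without NK cells with a *Cd3* UMI (−1.02, edgeR adjusted p = 0.9999, where 3 of 4 pairs had enough cells) or in DESeq2 (−1.56, adjusted p = 0.99999), and in T cells the change was −0.21 (edgeR adjusted p = 0.940). The difference between NK and T cells was −0.80 (edgeR adjusted p = 1), so the cell types were not shown to differ.

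No other NK gene passed with *APP/PS1*. Next by p were *Ccl4* (log2 fold change −0.59), *Ide* (−1.09), *Cd3d* (0.84), *Psmd11* (0.83) and *Mrpl54* (0.88), all at an edgeR adjusted p of 0.999. The median log2 fold change of all genes tested was −0.004, with 1723 of 3392 below 0. Among the gene lists it was −0.16 for the late maturation genes (7 of 7 tested below 0), −0.28 for interferon-stimulated genes (12 of 14 below 0), −0.44 for chemokines (4 of 4 below 0) and −0.18 for microglia markers (9 of 9 below 0), and none of these genes was called. *Gzma*, highest in *APP/PS1* mice at 9 months, had a log2 fold change of 0.15 over the 4 pairs (edgeR adjusted p = 0.999).

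With *Nlrp3* deletion, 4 of 4095 genes (0.0977%) were called in NK cells over 5 pairs, *Gm8797*, *Apoe* and *Ccl4* higher and *Trac* lower. *Gm8797* (chr3:5750806-5751295, + strand), a gene model whose 3′ end shares sequence with the ubiquitin gene *Ubb*, was at 123, 234 and 111 CPM in Nlrp3KO mice of 3, 6 and 9 months and at 139 and 131 CPM in Nlrp3KO *APP/PS1* mice of 3 and 9 months. The Nlrp3 wild-type libraries were at 10.4, 9.93 and 50.8 CPM in WT and at 0 and 23.7 CPM in *APP/PS1* mice, so that both groups did not overlap (148 ± 49.1 against 19.0 ± 19.7 CPM, SD, n = 5). The log2 fold change was 3.55 (SE 0.369, edgeR adjusted p = 2.08e-05, higher in 5 of 5 pairs), from 289 UMIs in 184 NK cells, and the gene stayed called under every alternative run (4.15 without the cells with a *Cd3* UMI, 3.41 without those of a high doublet score). Of its 90-base windows near the 3′ end 62.6% also occur in *Ubb* or *Gm1821*, and *Ubb* lies at chr11:62551171-62553213, on the chromosome of the deleted gene. How the reads were split among these genes was not tested. T cells showed 2.66 (SE 0.416, edgeR adjusted p = 0.296), and the difference between NK and T cells was 0.29 (edgeR adjusted p = 1). In T cells, too, the groups did not overlap, at 105 to 185 CPM in Nlrp3KO and 4.28 to 50.1 CPM in Nlrp3 wild-type libraries. The authors reported that in microglia of non-diseased mice *Gm8797* alone was significantly raised by the deletion, so its rise was not particular to NK cells.

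*Trac* (chr14:54220521-54224206, + strand) was at 46.9, 13.2 and 173 CPM in WT mice of 3, 6 and 9 months and 222 and 136 CPM in *APP/PS1* mice of 3 and 9 months, and at 15.9, 12.8 and 65.0 CPM in Nlrp3KO and 25.8 and 16.4 CPM in Nlrp3KO *APP/PS1* mice. It was lower in Nlrp3KO in all 5 pairs, although WT mice at 6 months were as low as the Nlrp3KO libraries (27.2 ± 21.7 against 118 ± 86.8 CPM, SD, n = 5). The log2 fold change was −2.40 (SE 0.332, edgeR adjusted p = 0.000965). It was −1.38 (edgeR adjusted p = 0.679) without the *APP/PS1* pair of 3 months. Without the cells with a *Cd3* UMI the gene was too low to be tested. In those remaining cells *Trac* was at 27.4, 0 and 13.6 CPM in Nlrp3KO against 27.6, 4.39 and 0 CPM in WT mice of 3, 6 and 9 months. At 3 months it was at 11.1 CPM in Nlrp3KO *APP/PS1* against 0 CPM in *APP/PS1* mice. DESeq2 did not call it (−1.94, adjusted p = 0.354), it was too low to be tested without the non-diseased pair of 9 months, and without the cells of a high doublet score it was −2.26 (edgeR adjusted p = 0.00334). The T cell markers summed to 1421 to 2043 CPM in the NK cells of Nlrp3KO libraries and 1095 to 3142 CPM in those of Nlrp3 wild-type libraries, and their part in the change of *Trac* was not tested. In T cells the log2 fold change of *Trac* was −0.13, and the difference between NK and T cells was −1.92 (edgeR adjusted p = 0.00569).

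*Apoe*, a lipid carrier made in quantity by glia and macrophages, was at 79.5, 28.2 and 687 CPM in Nlrp3KO and 629 and 32.8 CPM in Nlrp3KO *APP/PS1* mice, against 46.9, 19.9, 20.3, 75.0 and 14.2 CPM in the partners. Its highest libraries were made by single cells, 466 of 537 UMIs in the NK cells of Nlrp3KO *APP/PS1* mice at 3 months coming from 1 cell, and all 74 in Nlrp3KO mice at 9 months from 1 cell. The log2 fold change was 2.42 (SE 0.355, edgeR adjusted p = 0.0016), and DESeq2 gave an adjusted p of 0.220. Without the cells of a high doublet score, without the cells with a *Cd3* UMI, or without the *APP/PS1* pair of 3 months, *Apoe* was too low to be tested. *Ccl4* was at 1789, 890 and 576 CPM in Nlrp3KO mice of 3, 6 and 9 months and 558, 483 and 477 CPM in WT mice, and at 1342 and 279 CPM in Nlrp3KO *APP/PS1* against 395 and 309 CPM in *APP/PS1* mice of 3 and 9 months. It was higher in 4 of 5 pairs (log2 fold change 1.03, SE 0.191, edgeR adjusted p = 0.0268), from 2801 UMIs in 293 of 548 NK cells, although 290 of 450 UMIs of the Nlrp3KO library at 3 months were in 1 cell. It is named here after its values were seen because it did not rise in every pair. Without the 3-month non-diseased pair the log2 fold change was 0.83 (edgeR adjusted p = 0.264), without the 3-month *APP/PS1* pair 0.82 (0.433) and without the 6-month pair 1.06 (0.218), and DESeq2 gave 0.91 (adjusted p = 0.9999). It was 0.95 (0.0347) without the cells of a high doublet score, which is below the limit of size, and 1.44 (0.00553) without the cells with a *Cd3* UMI.

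Below these, *Spp1* (osteopontin) had a log2 fold change of 1.99 with an edgeR adjusted p of 0.0716, and it was called without the cells of a high doublet score (2.09, edgeR adjusted p = 0.0187) and without the *APP/PS1* pair of 3 months (2.60, edgeR adjusted p = 0.00552). Its UMIs lay mostly in 1 cell in several libraries, 58 of 61 in Nlrp3KO mice at 3 months and 13 of 14 in Nlrp3KO mice at 9 months. *Smap2*, *Tigd2*, *Dut* and *Ranbp1* (0.67, 0.88, −0.89 and −0.64) did not pass. The median log2 fold change of all genes tested was −0.000, with 2054 of 4095 below 0. Among the lists it was −0.13 for late maturation genes (9 of 9 below 0), −0.63 for proliferation genes (4 of 4 below 0), 0.32 for immediate early genes (11 of 13 above 0), −0.16 for interferon-stimulated genes (13 of 17 below 0), −0.60 for T cell markers (5 of 6 below 0, *Trac* called) and 0.47 for chemokines (3 of 4 above 0, *Ccl4* called). Of the genes tested with *APP/PS1* and with *Nlrp3* deletion, none was called among 6 and 6 Ly49 receptors, 11 and 12 other lectin-like receptors, 15 and 15 granule genes, 4 and 5 inflammasome genes, and 15 and 15 MHC class I genes, beside called shares of 0.0295 and 0.0977% over all genes.

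**Figure D5:**
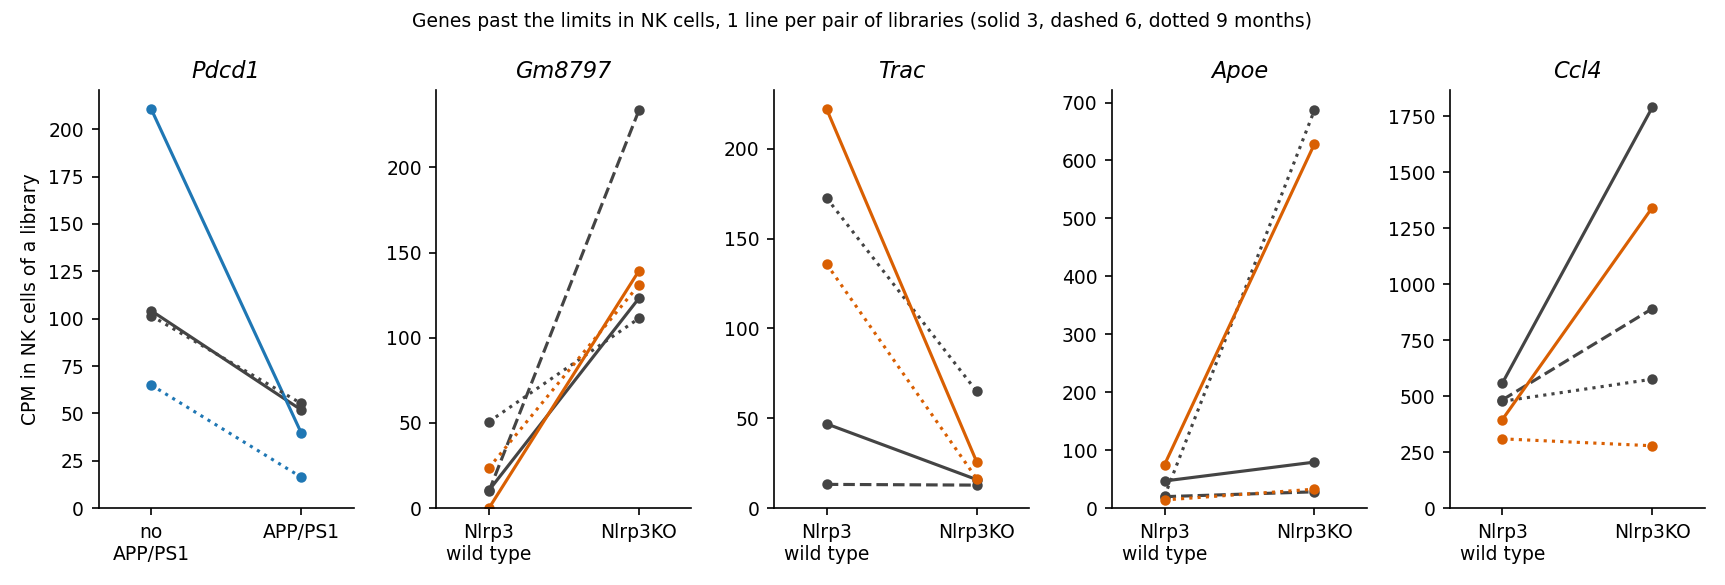
CPM in the NK cells of each library for *Pdcd1* (non-diseased against *APP/PS1*, 4 pairs; blue lines Nlrp3KO, grey Nlrp3 wild type) and for *Gm8797*, *Trac*, *Apoe* and *Ccl4* (Nlrp3 wild type against Nlrp3KO, 5 pairs; orange lines *APP/PS1* background, grey non-diseased). Lines join the libraries of a pair, solid at 3, dashed at 6 and dotted at 9 months. *Pdcd1* is lower in all 4 *APP/PS1* libraries of the pairs, *Gm8797* is higher in all 5 Nlrp3KO libraries without overlap, and *Apoe* rises above 600 CPM in 2 libraries.

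Whether NK cells answered differently from T cells was tested as an interaction, with each library giving an NK sum and a T sum. The *APP/PS1* effect differed for 3 of 5764 genes (0.052%) and the Nlrp3 effect for 7 of 6050 (0.116%). For *Gzmc*, *Cd8b1*, *Hist1h1b* and *Apoe*, and for *Pclaf* in the Nlrp3 comparison only, 1 cell held most UMIs of the NK or T cell sums. *Trac*, *Stmn1* and *Cd8a* were spread over more NK cells. No NK receptor was among them, and *Gzmc* was the only granule gene.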

How the data were processed

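Droplet scRNA-seq was run on CD45+ cells of whole brains, 1 library per genotype and age. The authors aligned reads to mm10 with Cell Ranger (version not given in the sources used here), removed outlying cells and deposited raw UMI counts with a cell annotation. Its doublet score was used as deposited, and its mitochondrial values are percent of UMIs and its ribosomal values a fraction, both as deposited. The table held 31053 genes, and every row named a gene. Cells of 2 deposited conditions without a sample label were not used.

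UMI counts were summed per library and cell type (at least 10 cells) and tested with edgeR 4.0.16 (limma 3.58.1, R 4.3.3) after filterByExpr and TMM, with the pair as block, and with DESeq2 1.42.0 as an alternative. Shares of cells were compared by permutation of the sign of each pair's difference (exact, two-sided), with exact binomial intervals (95%, SciPy 1.17.1, pandas 2.3.3, Python 3.11.15). No count was thinned except where 1000 UMIs per cell are named. A count of 0 was taken to allow up to 3 counts. Positions are those of GENCODE vM21 on GRCm38, the assembly behind mm10.

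The pairs share age, batch and the other genotype and come from the labels. The labels name no separate cultures or animals as replicates, and p-values measure the spread between pools. Named genes are members of the gene lists, the called genes changed alike in every pair (the next 5 by p where fewer than 5 were called), the 15 genes furthest above and 5 furthest below T, NKT and ILC2 cells, and the 5 most abundant. The members, lists and tests were chosen with earlier results of these data known. The ranges of the residency score, and the fits within them or without both doublets and cells with a *Cd3* UMI, were added after seeing the data. The model fits were tested on simulated data. Some genes of the lists are not reported here by name.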

Additional observations from a re-analysis of the deposited data

Results flagged for a closer look

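These values were flagged because the effect of a genotype differed between NK and T cells by a test of the interaction (edgeR quasi-likelihood, adjusted over all genes tested). With *APP/PS1*, the log2 effect in NK cells less that in T cells was 8.18 for *Gzmc* (adjusted p = 3.82e-09), −7.91 for *Cd8b1* (adjusted p = 0.00054) and 5.51 for *Pclaf* (adjusted p = 0.0146). With *Nlrp3* deletion it was −6.97 for *Pclaf* (adjusted p = 1.39e-05), −3.54 for *Stmn1* (adjusted p = 2.06e-05), 7.21 for *Gzmc* (adjusted p = 2.92e-05), −3.25 for *Cd8a* (adjusted p = 0.00301), −6.53 for *Hist1h1b* (adjusted p = 0.00436), −1.92 for *Trac* (adjusted p = 0.00569) and 3.37 for *Apoe* (adjusted p = 0.00672).

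Several of these sums hang on single cells. Of the 178 *Gzmc* UMIs in T cells 156 were in 1 cell of the WT library at 9 months, and of the 12 *Cd8b1* UMIs in NK cells 11 were in 1 cell of the same library. Without the 9-month *APP/PS1* pair that holds it, the *APP/PS1* differences of *Gzmc* and *Cd8b1* turned to −0.95 and 0.14, and without the non-diseased 9-month pair the Nlrp3 difference of *Gzmc* turned to −0.28. *Pclaf*, a replication factor, had 88 UMIs in 9 NK cells, 45 of them in 1 cell of the WT library at 6 months (103 CPM). That library is in no *APP/PS1* pair, so this cell bears on the Nlrp3 difference of *Pclaf* only. *Hist1h1b*, a linker histone of dividing cells, had 29 of 42 NK UMIs in 1 cell. *Stmn1* (stathmin) was spread more widely, with 218 UMIs in 50 NK cells, and *Cd8a* had 82 UMIs in 26 NK cells. *Apoe* had 466 of 702 NK UMIs in 1 cell and 3587 of 3801 T cell UMIs in the WT library at 6 months. The part of the single cells was not tested.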

How the results depend on the processing

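The higher NK share in *APP/PS1* mice turned to −3.69 points as a share of the 4 lymphoid types and to −0.0212 in log odds, and leaving out each pair gave 0.405 to 4.18 points. As a share of all CD45+ cells the difference was 1.05 points (means 1.63 and 0.582%, higher in 3 of 4 pairs, p = 0.25 by exact permutation). An edgeR fit of the cell numbers outside the microglia gave a log2 fold change of 0.0373 for NK cells (unadjusted p = 0.951). The Nlrp3KO share ran from −1.93 to 1.67 points and the NK to T ratio from −0.738 to 0.153 (log2), both reversed without the 9-month *APP/PS1* pair. The ratio in *APP/PS1* ran from −1.26 to −0.309. With so few pairs the permutation tests could not reach 0.05 under any setting. For *APP/PS1* the number of called genes (1) became 0 in DESeq2 (20 genes at an unadjusted p below 0.05, 125 in edgeR), 0 without cells with a *Cd3* UMI, 0 without these and the doublets and 2 with no filter, and 0 to 1 leaving out pairs. Without the pair as a replicate block 0 genes were called for *APP/PS1* and 4 for Nlrp3KO. For Nlrp3KO (4) the number was 2 in DESeq2 (*Gm8797* and *Stmn1* at −3.08, the latter also called without the non-diseased pairs of 3 and 9 months), 22 with no filter, 2 without cells with a *Cd3* UMI, 2 without both kinds of cells, 2 in residency cells only and 2 to 5 leaving out pairs. The numbers of genes that differed between NK and T cells were 1 in DESeq2 and 13 with no filter for *APP/PS1* (2 to 4 leaving out pairs), and 1 in DESeq2 and 17 with no filter for Nlrp3KO (4 to 23 leaving out pairs, 15 without the non-diseased pair of 3 months, 23 without that of 6 months and 4 without the *APP/PS1* pair of 3 months). Of genes named, the *Gzmc* difference between NK and T cells ran from −0.95 to 8.43 (*APP/PS1*) and −0.28 to 8.17 (Nlrp3KO) leaving out pairs and that of *Cd8b1* from −8.95 to 0.14, each reversed without a 9-month pair. The cause was not tested. Nlrp3KO *APP/PS1* mice at 9 months had under 10 cells once cells were removed, so 3 of 4 and 4 of 5 pairs entered those fits. With 10 to 18 NK cells in 3 libraries, genes seen in few cells could not be compared at this depth.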

Other observations

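Within the residency range alone, chosen after the values were seen, *Gzma* was higher in *APP/PS1* mice in the 3 pairs with at least 10 cells per library. It was at 60.9 CPM in WT and 136 CPM in Nlrp3KO against 345 CPM in *APP/PS1* and 403 CPM in Nlrp3KO *APP/PS1* mice at 3 months, at 191 and 1089 CPM in WT and Nlrp3KO mice at 6 months, and at 227 CPM in WT, 93.6 CPM in Nlrp3KO and 5905 CPM in *APP/PS1* mice at 9 months. A UMI was in 44.6% of the residency cells of the last library and in 8.70 to 28.3% of those of the other libraries that had at least 10 cells. The log2 fold change over 3 pairs was 3.30 (SE 0.451, edgeR adjusted p = 0.0178, higher in 3 of 3 pairs), while over all NK cells it was 0.15 (edgeR adjusted p = 0.999). Few cells carried these values. WT mice had 7 UMIs in 2 cells at 3 months and 20 in 2 cells at 9 months, and Nlrp3KO mice 18 in 3 cells at 3 months. In *APP/PS1* mice at 3 months 34 of 78 UMIs were in 1 cell. The Nlrp3KO *APP/PS1* library at 9 months, with 0 *Gzma* UMIs in its 9 residency cells, was too small to enter. Its pair went the other way, with 93.6 CPM in the Nlrp3KO partner.

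In the same range *Klra8* (Ly49H) was higher with *Nlrp3* deletion over 4 pairs, with a log2 fold change of 1.41 (SE 0.269, edgeR adjusted p = 0.0359). It was at 78.2, 95.6 and 0 CPM in WT mice of 3, 6 and 9 months and 35.4 and 222 CPM in *APP/PS1* mice of 3 and 9 months, against 144, 242 and 72.8 CPM in Nlrp3KO mice and 112 CPM in Nlrp3KO *APP/PS1* mice of 3 months. The groups overlapped, and it was found in 0 to 10 cells per library that entered, with all 19 UMIs of the Nlrp3KO library at 3 months in 1 cell. The 9-month *APP/PS1* pair, which did not enter, went the other way (222 CPM against 0 UMIs in 9 cells), and over all NK cells *Klra8* was lower with the deletion in 2 of 5 pairs.

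Residency cells also held transcripts outside the lists, named after their values were seen. *Sema6d* (a semaphorin) was at 131 CPM and had 0 UMIs in late cells, *Jaml* (an adhesion molecule) was at 183 against 5.84 CPM and *Ramp1* (a part of the receptor for calcitonin gene-related peptide) at 151 against 7.79 CPM. *Gzmc* was in 27.6 to 62.2% of the residency cells of the 9 libraries that had at least 10 of them.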
